A study of Mus musculus with 9 samples.

Results

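The transcripts of 10 genes that regulate transcription or mRNA storage in male germ cells, none of them an RFX gene, were compared between wild type and Rfx2-/- testes. The genes were Crem, Fhl5, Tbpl1, Taf7l, Gtf2a1l, Sox30, Mybl1, Brdt, Brwd1 and Ybx2, taken by name through their Ensembl identifiers (GENCODE M21) from a table of 23074 genes, and all 10 were among the 15613 genes with enough counts to test. RNA-seq was carried out on decapsulated testes, which hold germ cells of all stages together with somatic cells, from mice at postnatal days 29 to 30. The wild type group (WT) held 5 mice and the Rfx2-/- group 4, with 1 library per mouse. Animals of both genotypes came from a mixed background of C57BL/6, 129/Sv and FVB/N. The knockout lacks one exon of Rfx2, which encodes much of the DNA-binding domain and was removed with loxP sites and a ubiquitously expressed Cre (ACTB-cre), so that every cell of the animal carries the deletion. The methods describe the line kept on a mixed background as retaining a neomycin cassette in the targeted allele. RFX2 is a DNA-binding factor that recognises the X-box, and the comparison asked which transcripts differed in testes without it.

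Spermatocytes and round spermatids use regulators of which some are lacking in most other cells. CREM switches on genes of haploid cells together with its coactivator ACT, the product of Fhl5. TRF2 (Tbpl1), TAF7L and ALF (Gtf2a1l) are germ cell counterparts of the general factors that place RNA polymerase II at promoters. A-MYB (Mybl1) and the bromodomain proteins BRDT and BRWD1 act from meiosis onwards, SOX30 activates spermatid genes, and YBX2 (MSY2) binds and stores their mRNAs until the nucleus condenses.

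Of the 10 genes, 1 fell in Rfx2-/- testes by more than 2-fold, Gtf2a1l, which was at 41.5% of its WT level. Sox30 was at 57.9% of WT and passed an adjusted p of 0.05 by a narrow margin. The other 8, the CREM pair, TRF2, TAF7L, the meiotic regulators and Ybx2 among them, did not pass, and their 95% intervals lay within a 2-fold change in either direction. Gtf2a1l was the 1 gene called lower at an edgeR adjusted p of 0.01 with a change over 2-fold, where the background was 3.68% of all genes tested. No gene of the 10 was called higher (background 0.826%). By the wider rule, an edgeR adjusted p of 0.05 at any fold, 2 were lower (background 7.31%) and 0 higher (background 3.48%), with a background of 10.8% for both directions together. At an unadjusted p under 0.05 there were 2 lower and 1 higher. DESeq2 called 1 lower and 0 higher, where 731 and 211 of 17819 genes were called over all. By the wider rule it gave 2 lower and 0 higher. For the unadjusted limit and the wider rule in DESeq2, shares of all genes were not computed, here or for other lists. Genotypes did not overlap, with Rfx2-/- below WT, for 2 of the 10 (background 9.7%), and for 0 with Rfx2-/- above WT (background 6.16%, or 15.9% for either direction). The median log2 fold change was 0.02 over the 10 genes, 5 of them below 0, and 0.03 over all genes tested, 46.9% of them below 0.

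**Figure D1:**
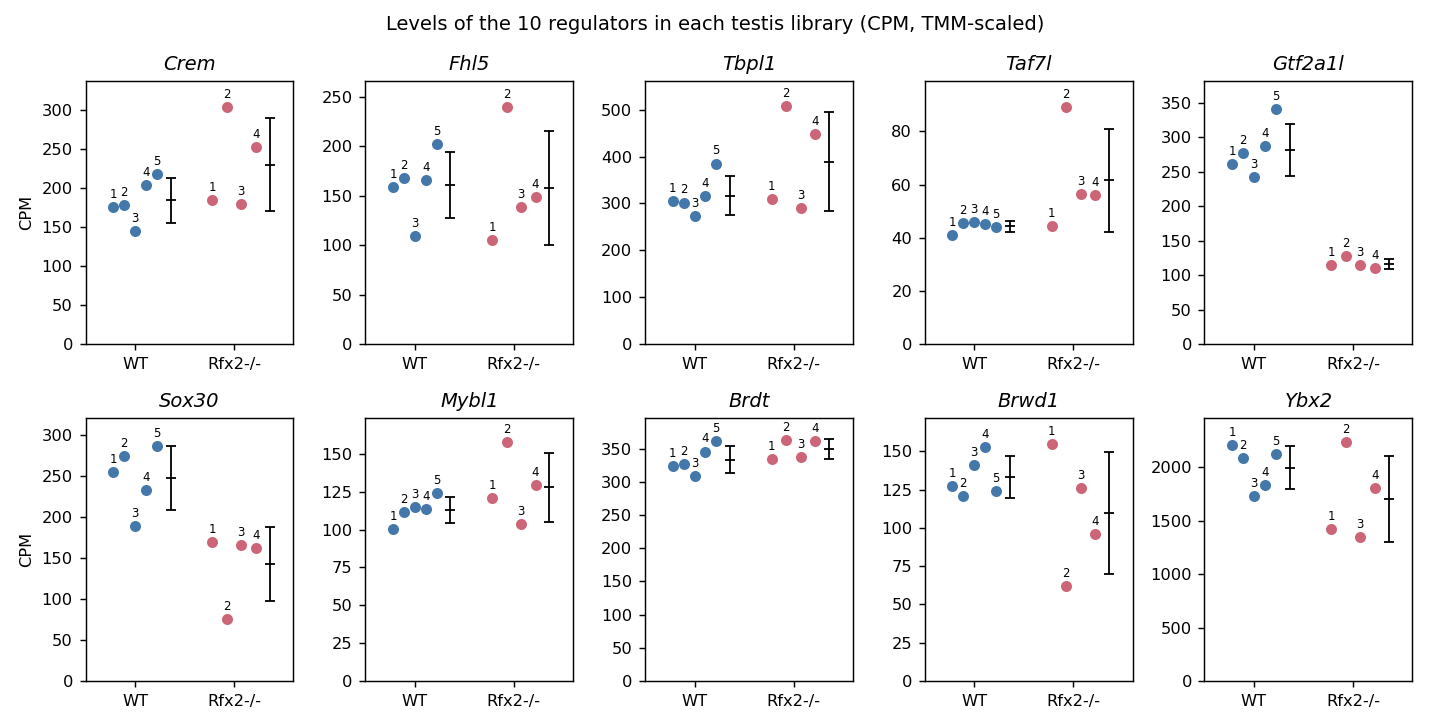
Level of each of the 10 genes in every testis library, in CPM (TMM-scaled, linear axes from 0), with WT in blue, Rfx2-/- in red, replicate numbers above the points and bars at mean ± SD (n = 5 and n = 4). The Rfx2-/- points lie below every WT point for Gtf2a1l (111 to 128 CPM against 243 to 342) and Sox30 (75.7 to 169 against 189 to 287) and overlap WT for the other 8.

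Libraries held 13574764 to 15193330 counts, except Rfx2-/- replicate 1 with 28800855, and the lowest count of any of the 10 genes in any library was 536. Rfx2 itself had 471 to 623 CPM (counts relative to the library's total, with TMM scaling) in WT and 61.5 to 199 CPM in Rfx2-/- testes (log2 fold change -1.91, SE 0.28, edgeR adjusted p 7.81e-04). The biological coefficient of variation was 0.139 in WT and 0.310 in Rfx2-/-, or 0.188 without Rfx2-/- replicate 2, which differed from the other knockout libraries by transcript length. WT replicate 3 had lower elongating spermatid markers than the other WT libraries. Log2 fold changes without Rfx2-/- replicate 2 are given for each of the 10 genes.

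Crem encodes the activator CREMτ of spermatids and, from other promoters and exons, repressor forms, which counts per gene do not separate. The gene lies on chromosome 18 (GRCm38, chr18:3266048-3337748, minus strand). Its level was 176, 178, 144, 203 and 218 CPM in WT replicates 1 to 5 and 184, 304, 179 and 253 CPM in Rfx2-/- replicates 1 to 4. Replicates 2 and 4 of the knockout were above all WT libraries, and the other 2 were within the WT range. The means were 184 ± 28.4 (SD, n = 5) and 230.0 ± 59.6 CPM (SD, n = 4), and the log2 fold change was 0.32 with a 95% interval of -0.09 to 0.73 (edgeR adjusted p 0.285), or 0.16 without replicate 2. A share of 5.73% of its sequence also occurs in Gm6225.

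Fhl5 encodes ACT, a LIM domain protein that binds CREM and activates without the phosphorylation that CREB needs (chr4:25199908-25242876, minus strand). WT libraries had 159, 168, 109, 166 and 203 CPM and knockout libraries 105, 239, 139 and 149 CPM. The ranges of the genotypes overlapped, with a log2 fold change of -0.03 and a 95% interval of -0.54 to 0.49 (edgeR adjusted p 0.952). The lowest WT value was that of replicate 3 and the highest knockout value that of replicate 2. Without replicate 2 the log2 fold change was -0.30. With both libraries left out, an alternative chosen after seeing the data, the log2 fold change was -0.41 (edgeR adjusted p 0.0458). The related Fhl4, also a testis LIM protein gene, was at 707 ± 113 RPKM (CPM divided by the length of the exons in kb) in WT and 760 ± 280 RPKM in Rfx2-/- testes, and differed by 0.11 on the log2 scale.

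Partners of CREM and components of cAMP signalling were examined as a list of 17 genes. By edgeR, 1 of the 17 was called lower and 0 higher, with a median log2 fold change of 0.08. The lower gene was Prkar2a, a regulatory subunit of protein kinase A, at 182, 185, 101, 177 and 217 CPM in WT libraries and 75.5, 108, 78.0 and 63.0 CPM in Rfx2-/- libraries. The gene differed by -1.09 on the log2 scale (SE 0.22, edgeR adjusted p 0.00762), and WT replicate 3 lay within the knockout range. Kif17, a kinesin that carries ACT out of the nucleus, had 474 ± 79.2 CPM in WT and 322 ± 130.2 CPM in Rfx2-/- testes and did not pass (log2 fold change -0.56, edgeR adjusted p 0.231). Creb3l4, a bZIP factor gene, differed by 0.13 and the coactivators Crebbp and Ep300 by -0.32 and -0.31 on the log2 scale, with edgeR adjusted p-values of 0.643, 0.597 and 0.528.

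Haploid genes known to depend on CREM formed a further list. Of 8 such genes, 4 fell and 1 rose by the wider rule, and the median log2 fold change was -0.76. Those that fell were Prm1 (-1.21), Prm2 (-1.10), Tnp1 (-1.12) and Odf1 (-0.74), with edgeR adjusted p-values of 0.0156, 0.0210, 0.0416 and 0.0262. Genotypes overlapped for all 4. Prm1, for example, was at 960 CPM in WT replicate 3, below the 1151 CPM of Rfx2-/- replicate 2. By library the median of the 8 genes relative to the WT mean was -0.69 in WT replicate 3, and -0.98, -0.37, -0.70 and -0.86 in Rfx2-/- replicates 1 to 4. DESeq2 gave 5 lower and 1 higher. Prm1, Prm2 and Tnp1 encode protamines and a transition protein, which replace histones, and Odf1 encodes a component of the outer dense fibres. Camk4 rose from 42.3 to 61.5 CPM in WT to 84.7 to 116 CPM in Rfx2-/- testes (log2 fold change 0.83, SE 0.15, edgeR adjusted p 0.00301). The locus encodes a kinase that can phosphorylate CREM and, from an internal promoter, calspermin, and counts per gene do not separate them. Smcp and Ace did not pass (log2 fold changes -0.45 and -0.27), nor did Tnp2 (-0.77, edgeR adjusted p 0.0927).

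The study's supplementary material marks 233 tested genes as bound by and dependent on CREM, fewer than its text gives, for a reason not known here. By the wider rule in edgeR 35 of them (15.0%) were lower and 5 (2.15%) higher, and 73.0% had a log2 fold change below 0. Over all genes tested these shares were 7.31%, 3.48% and 46.9%. DESeq2 gave 51 lower and 8 higher by the wider rule. At an edgeR adjusted p of 0.01 with a change over 2-fold, 7 of the 233 were lower and 1 higher. The backgrounds of that rule were 3.68% and 0.826%, and DESeq2 gave 10 lower and 1 higher by it. By library, the median of this list relative to the WT mean was -0.34, -0.12, -0.22 and -0.25 in Rfx2-/- replicates 1 to 4, and it was -0.46 in WT replicate 3, lower than in any knockout library.

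TRF2 is a relative of the TATA-binding protein, and male mice without it stop at the spermatid stage. Tbpl1 (chr10:22703879-22731938, minus strand) had 305, 302, 274, 316 and 385 CPM in WT and 309, 508, 291 and 447 CPM in Rfx2-/- libraries. Replicates 2 and 4 of the knockout were above all WT libraries and the other 2 were within their range. The log2 fold change was 0.30 with a 95% interval of -0.11 to 0.71 (edgeR adjusted p 0.322), or 0.14 without replicate 2. A share of 11.1% of its exonic sequence also occurs in Slc2a12, whose exons overlap it on the opposite strand. Tbp differed by -0.09, and Tbpl2, the oocyte form, had 0 counts in every library.

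Taf7l is an X-linked relative of the TFIID subunit gene Taf7 (chrX:134460118-134476490, minus strand). Its WT libraries were close together at 40.9, 45.5, 46.0, 45.0 and 44.0 CPM, and those of the knockout were at 44.5, 89.2, 56.6 and 55.9 CPM. Of the knockout libraries, 3 were above the WT range and replicate 1 was inside it. The log2 fold change of 0.47 had a 95% interval of 0.08 to 0.87 and did not pass (edgeR adjusted p 0.116), although it passed without Rfx2-/- replicate 1 (0.63, edgeR adjusted p 0.0286) and after correction for transcript length (0.44, edgeR adjusted p 0.0450). Without Rfx2-/- replicate 2 it was 0.24. Taf7 had 31.2 to 34.7 CPM in WT and 36.6 to 88.7 CPM in Rfx2-/- testes, with a log2 fold change of 0.67 that did not pass either (edgeR adjusted p 0.0848) and replicate 2 again highest.

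Gtf2a1l encodes ALF, the germ cell form of the large subunit of TFIIA, which steadies the TATA-binding protein on promoters. The gene lies on the plus strand of chromosome 17 (chr17:88668660-88715152). WT libraries had 261, 277, 243, 288 and 342 CPM and Rfx2-/- libraries 115, 128, 115 and 111 CPM. The lowest WT library was thus above the highest knockout library, and the knockout libraries were closer together than those of WT, with coefficients of variation of 6.23% and 13.3%. The means were 282 ± 37.5 CPM (SD, n = 5) and 117 ± 7.29 CPM (SD, n = 4), a 2.41-fold lower level in Rfx2-/- testes. The log2 fold change was -1.27 (SE 0.14, 95% interval -1.58 to -0.96, edgeR adjusted p 7.64e-05).

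The call of Gtf2a1l did not rest on 1 library. Over 17 alternatives its log2 fold change was between -1.36 and -1.13 and its adjusted p between 3.16e-19 and 7.80e-04. The -1.36 came without WT replicate 3 and Rfx2-/- replicate 2 together, chosen after seeing the data. The interval includes a change of exactly 2-fold, and the edgeR test for a change beyond 2-fold did not pass (adjusted p 0.312). Rfx2-/- replicate 2 was 0.17 above the other knockout libraries on the log2 scale, against a median of 0.61 for all genes with under 2 kb of exons, and without it the log2 fold change was -1.31.

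The somatic counterpart was compared with it. Gtf2a1, which encodes the ubiquitous large subunit, had 7.02 ± 0.53 RPKM in WT and 7.47 ± 0.54 RPKM in Rfx2-/- testes, with a log2 fold change of 0.09 (95% interval -0.17 to 0.35, edgeR adjusted p 0.652). Per exonic length, the ratio of Gtf2a1l to Gtf2a1 was 23.5, 24.5, 18.9, 26.3 and 31.99 in WT libraries and 8.79, 10.2, 9.76 and 9.99 in Rfx2-/- libraries. Gtf2a1l was the more abundant form in every library, and the ratios of the genotypes did not overlap. The small TFIIA subunit gene Gtf2a2, shared by both forms, differed by 0.33 (edgeR adjusted p 0.263).

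The promoter of Gtf2a1l is shown because it was the 1 member called lower. The 250 bases before its start (RefSeq, GRCm38.p6, chr17:88668410-88668659, plus strand) are given 5′ to 3′. Capitals mark GTTNCC, a loose form of one X-box arm with any base at N, on the left and GTTGCNNNGCAAC on the right.
Gtf2a1l: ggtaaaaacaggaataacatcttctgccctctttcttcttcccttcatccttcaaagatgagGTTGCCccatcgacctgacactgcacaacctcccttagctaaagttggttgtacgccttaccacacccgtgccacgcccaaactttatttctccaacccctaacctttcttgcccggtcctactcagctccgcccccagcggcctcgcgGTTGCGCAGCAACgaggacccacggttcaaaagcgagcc

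The window holds GTTGCGCAGCAAC, 39 to 27 bases before the start, in which the letters GTTGC meet their reverse complement across 3 bases. This pattern was chosen after the sequence was seen. It occurs in 0.207% of 32851 promoter windows of the same length and in no other window of the 10 genes. GTTGCC, a match to GTTNCC, lies 188 to 183 bases before the start, and GTTNCC occurs in 39.4% of windows. A match to CAACNG, the core letters read by MYB proteins, lies 41 to 36 bases before the start on the minus strand and overlaps the paired letters (29.3% of windows). Gtf2a1l is not on the study's list of genes with an RFX2 promoter peak at P21.

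Of the other general transcription factors, 23 were tested (TFIID subunits, TFIIA, TFIIB, TFIIE and TFIIF). By edgeR 0 were lower and 0 higher under either rule, with 1 lower and 2 higher at an unadjusted p under 0.05, and DESeq2 gave 1 lower by the wider rule. Their median log2 fold change was 0.17, with 6 below 0. Taf11, a TFIID subunit, was the lower gene in DESeq2, with 52.8 to 57.9 CPM in WT and 35.0 to 48.6 CPM in Rfx2-/- libraries (log2 fold change -0.42, edgeR adjusted p 0.0655). Taf4b, a germ cell TFIID subunit, differed by 0.22 (edgeR adjusted p 0.339).

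Sox30 encodes an HMG box factor needed for round spermatids to progress (chr11:45980310-46017994, plus strand). WT libraries had 255, 274, 189, 232 and 287 CPM and Rfx2-/- libraries 169, 75.7, 166 and 162 CPM. All 4 knockout libraries were below the lowest WT library, replicate 3, but 3 of them by a small distance, and replicate 2 stood far below. The means were 247 ± 38.6 CPM (SD, n = 5) and 143 ± 45.0 CPM (SD, n = 4), with a log2 fold change of -0.79 (SE 0.23, 95% interval -1.29 to -0.29, edgeR adjusted p 0.0483).

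Among 17 alternatives, 10 put Sox30 above an adjusted p of 0.05, with a range from 4.00e-04 to 0.114, and the direction did not change. The lowest of these adjusted p-values came without WT replicate 3 and Rfx2-/- replicate 2 together, an alternative chosen after seeing the data. Without Rfx2-/- replicate 2 the change was smaller and passed (log2 fold change -0.58, edgeR adjusted p 0.0102), and DESeq2 gave -0.79 with an adjusted p of 0.0101. Sox30 was the 1 gene of the 10 on the study's list of RFX2 promoter peaks at P21, so its window (RefSeq, GRCm38.p6, chr11:45980060-45980309, plus strand) is given 5′ to 3′, with capitals for the reverse complement of GTTNCC.
Sox30: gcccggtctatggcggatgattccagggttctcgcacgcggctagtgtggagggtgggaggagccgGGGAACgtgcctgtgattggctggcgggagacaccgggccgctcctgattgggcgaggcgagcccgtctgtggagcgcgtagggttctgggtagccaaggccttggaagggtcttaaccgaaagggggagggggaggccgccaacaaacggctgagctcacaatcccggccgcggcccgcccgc

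GGGAAC lies 184 to 179 bases before the Sox30 start. On the other strand it reads GTTCCC, with C where both arms of the strict X-box pattern take A or G. Neither the X-box pattern nor the paired letters were found in the window. Bases after the start or more than 250 before it were not searched, although the study's promoter regions include some of them. RefSeq windows were matched for 8 of the 10 genes (10 windows, since Fhl5 and Ybx2 have more than one), not for Crem and Mybl1. None of the 10 windows matched the strict X-box pattern (1.29% of all windows), which leaves out the paired letters of Gtf2a1l, a gene described before as having a site for RFX factors. Nor did any hold the full cAMP response element TGACGTCA (1.55% of all windows), on either strand. GTTNCC was also found in a window each of Fhl5, Taf7l and Ybx2, as GGGAAC in Fhl5 and Taf7l and as GGCAAC in Ybx2.

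A-MYB drives meiotic genes from the pachytene stage. Mybl1 (chr1:9667415-9700209, minus strand) had 100.1, 112, 115, 114 and 124 CPM in WT and 121, 158, 103.5 and 130 CPM in Rfx2-/- libraries. Replicates 2 and 4 of the knockout lay above WT and the other 2 within it, with a log2 fold change of 0.18 (95% interval -0.14 to 0.50, edgeR adjusted p 0.437), or 0.06 without replicate 2. Mybl2, the relative found in dividing cells, had 12.3 ± 1.77 CPM in WT and 7.74 ± 3.01 CPM in Rfx2-/- testes and did not pass (log2 fold change -0.66, edgeR adjusted p 0.128). Myb had at most 8 counts in a library and was not tested.

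BRDT reads acetylated histones in spermatocytes and spermatids. Brdt (chr5:107331159-107387058, plus strand) had 324, 327, 309, 346 and 361 CPM in WT and 335, 363, 338 and 362 CPM in Rfx2-/- libraries. The ranges overlapped almost entirely, and the log2 fold change of 0.07 had a 95% interval of -0.20 to 0.33 (edgeR adjusted p 0.744), the narrowest of the 10, and was 0.05 without replicate 2. The related genes Brd2 and Brd3 differed by -0.15 and -0.45 (edgeR adjusted p 0.484 and 0.227).

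BRWD1 is a WD repeat and bromodomain protein found in late spermatocytes and spermatids, though not only there. Brwd1 (chr16:95992092-96082526, minus strand) had 127, 120.5, 141, 153 and 124 CPM in WT and 155, 62.3, 126 and 96.1 CPM in Rfx2-/- libraries. Knockout libraries lay above, within and below the WT range, and the lowest was replicate 2. The log2 fold change was -0.28 (95% interval -0.76 to 0.21, edgeR adjusted p 0.433), -0.08 without replicate 2 and -0.02 after the length correction. With 15012 exonic bases Brwd1 was the longest of the 10, and its span overlaps Gm15342. Its relatives Brwd3 and Phip differed by 0.21 and 0.24.

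Ybx2 (chr11:69935796-69941605, plus strand) was the most abundant of the 10 per exonic length. WT libraries had 2211, 2083, 1731, 1835 and 2129 CPM and Rfx2-/- libraries 1427, 2236, 1349 and 1807 CPM. Replicates 1 and 3 of the knockout lay below all WT libraries, replicate 4 was inside their range, and replicate 2 was above it. The log2 fold change was -0.23 with a 95% interval of -0.62 to 0.16 (edgeR adjusted p 0.422), -0.39 without replicate 2, and -0.43 (edgeR adjusted p 0.0270) without WT replicate 3 and Rfx2-/- replicate 2. Its relatives Ybx1 and Ybx3 differed by 0.24 and -0.14.

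**Figure D2:**
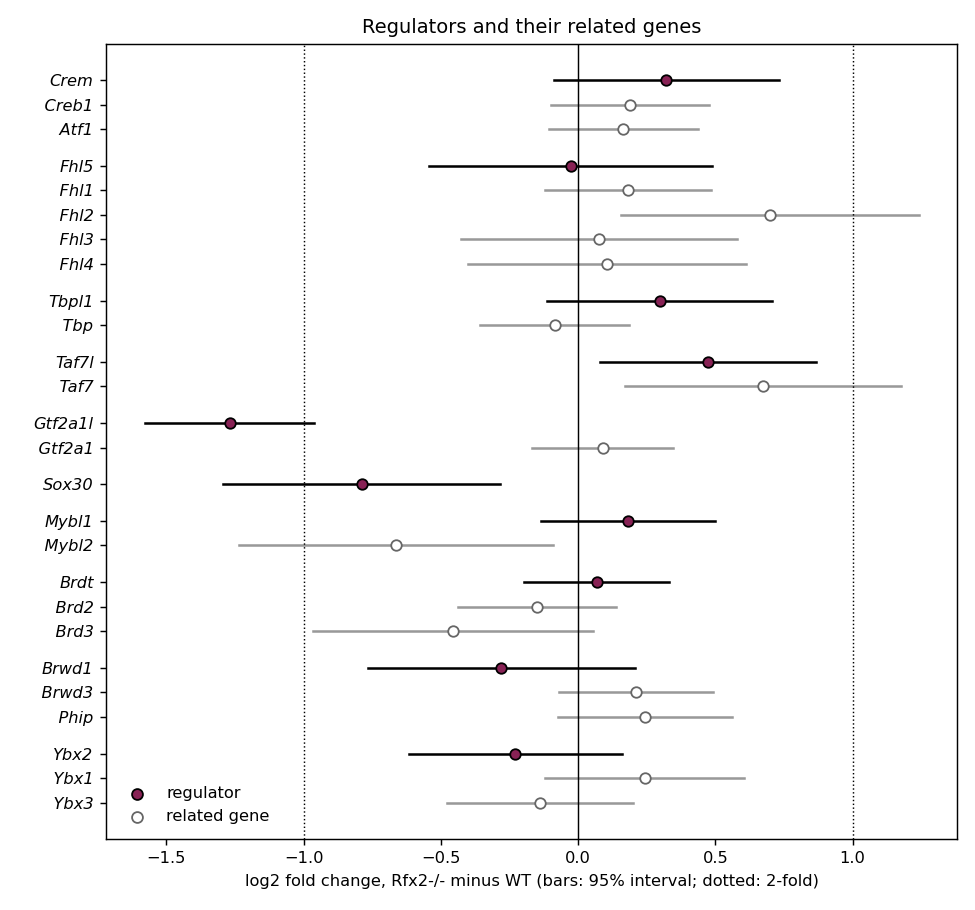
Log2 fold change (Rfx2-/- minus WT) of each of the 10 genes (filled) and of its tested relatives (open), with 95% intervals from edgeR and dotted lines at 2-fold. Gtf2a1l at -1.27 stands apart from Gtf2a1 at 0.09, and Sox30 at -0.79 has no relative in the list.

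Of 18 relatives of the 10 genes in the list, 16 were tested. None passed either rule by edgeR, with 1 lower and 2 higher at an unadjusted p under 0.05 and 0 calls by DESeq2, and the median log2 fold change was 0.13. Fhl2 (0.70, edgeR adjusted p 0.0954), Taf7 and Mybl2 were the genes past the unadjusted limit.

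Per exonic length, the order of the 10 genes in WT testes was Ybx2 (1103 ± 113 RPKM), Gtf2a1l (174 ± 23.1), Fhl5 (137 ± 28.6), Tbpl1 (104 ± 13.7), Sox30 (82.5 ± 12.9), Brdt (65.9 ± 4.01), Crem (37.0 ± 5.71), Mybl1 (22.5 ± 1.72), Taf7l (22.1 ± 0.9998) and Brwd1 (8.87 ± 0.90), each as RPKM with SD and n = 5. Mybl1 and Taf7l exchanged places between WT libraries, and the other 8 kept theirs in all 5. In Rfx2-/- testes Gtf2a1l was at 72.2 ± 4.50 RPKM and Sox30 at 47.7 ± 15.0 RPKM (SD, n = 4). Gtf2a1l took place 2 of the 10 in every WT library and places 4, 4, 4 and 5 in Rfx2-/- replicates 1 to 4. Sox30 took place 5 in every WT library, and in the knockout libraries its places were 6, 9, 6 and 6. Ybx2 was first and Brwd1 last in all 9 libraries.

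Among 28 other transcription and chromatin regulators of germ cells, 0 were lower and 1 was higher by the wider rule, and the median log2 fold change was -0.16 with 16 below 0. The higher gene was Hsf2, a heat shock factor of spermatocytes, at 43.8 to 57.0 CPM in WT and 58.1 to 104.5 CPM in Rfx2-/- testes (log2 fold change 0.65, edgeR adjusted p 0.0386). By DESeq2, Kctd19 and Kdm3a were lower and Scml2 was also higher by this rule. In edgeR these 3 had log2 fold changes of -0.41, -0.42 and 0.37 (edgeR adjusted p 0.113, 0.0657 and 0.0780). Kdm3a encodes a histone H3 lysine 9 demethylase that acts on protamine and transition protein genes, and it had 297.5 to 349 CPM in WT and 204 to 264 CPM in Rfx2-/- libraries.

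**Figure D3:**
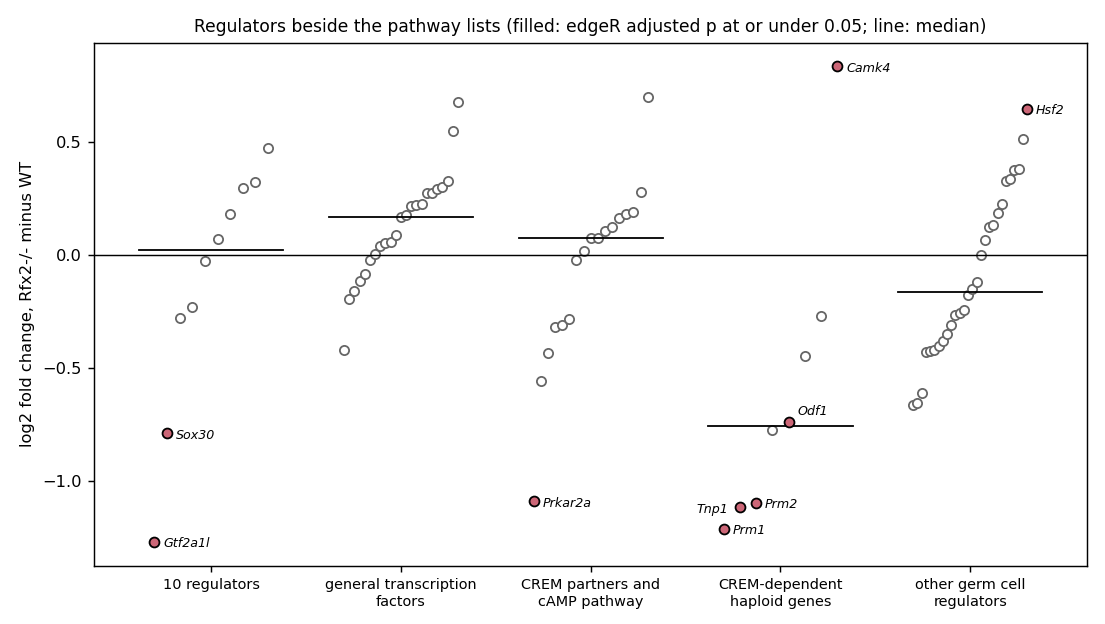
Log2 fold change (Rfx2-/- minus WT) of every tested gene in 5 lists, each sorted by value, with a line at the list's median. Filled points passed an edgeR adjusted p of 0.05: Gtf2a1l and Sox30, no general factor, Prkar2a, 5 of the 8 CREM-dependent haploid genes and Hsf2.

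Markers of germ cell stages were compared in the same libraries. All 14 elongating spermatid markers were below 0, 7 of them lower by the wider rule, with a median log2 fold change of -0.76. DESeq2 put 11 of the 14 lower by this rule. Their summed level was 12281 to 23935 CPM in WT, where replicate 3 was lowest, and 10505 to 13969 CPM in Rfx2-/- testes. The list shares Prm1, Prm2, Tnp1, Tnp2, Odf1 and Smcp with the CREM-dependent list. Of 12 round spermatid markers, 1 was lower, Dpy19l2, which was also called at over 2-fold, and 1 was higher, Catsper4. Their summed levels were 2155 to 3079 CPM in WT, where replicate 3 was lowest, and 2184 to 3028 CPM in Rfx2-/- testes, where replicate 2 was highest. Of 12 meiotic prophase markers 2 were higher, Smc1b and Sycp2, the median was 0.39, and the summed levels were 2239 to 2781 and 2655 to 3977 CPM. The 3977 CPM was that of Rfx2-/- replicate 2. By library, the median of this list relative to the WT mean was 0.16, 0.89, 0.17 and 0.46 in Rfx2-/- replicates 1 to 4. Of 7 late spermatocyte markers, 1 was lower by the wider rule, Cdc25c, and 0 were higher, with a median of -0.12. By library, their median relative to the WT mean was -0.17, -0.19, -0.32 and 0.17 in Rfx2-/- replicates 1 to 4. No marker of these lists was at 0 in all libraries. From counts of whole testis alone, fewer cells of a stage and less RNA per cell cannot be told apart. By histology at the age sampled here, the paper describes late spermatids with condensed nuclei in WT testes. In Rfx2-/- testes it describes a complete arrest of spermatids before they elongate. The part of this arrest in the lower elongating spermatid markers was not tested. Nor was the part of the stage markers in the levels of Gtf2a1l and Sox30.

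None of the 10 spermatogonial, 7 Leydig cell, 5 peritubular and 8 macrophage markers passed the wider rule in edgeR, and of 10 Sertoli cell markers 1 was higher, Amh. By DESeq2, Star (Leydig), Cnn1 (peritubular), C1qa (macrophage) and Rhox5 (Sertoli) were also higher, with log2 fold changes in edgeR of 0.57, 0.88, 0.95 and 0.70 (edgeR adjusted p 0.0821, 0.0553, 0.0867 and 0.0843). Summed spermatogonial markers were at 180 to 210 CPM in WT and 166 to 226 CPM in Rfx2-/- testes.

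Rfx2-/- replicate 2 was the extreme knockout library for all 10 genes. It was the highest of the 4 for 8 of them and the lowest for Sox30 and Brwd1. On the log2 scale it differed from the other knockout libraries by 0.89 for Fhl5, 0.78 for Taf7l, 0.58 for Crem, 0.57 for Tbpl1, 0.56 for Ybx2, 0.43 for Mybl1, 0.17 for Gtf2a1l, 0.08 for Brdt, -0.98 for Brwd1 and -1.13 for Sox30. Over all genes the median difference was 0.61 for genes with under 2 kb of exons, 0.06 from 2 to 4 kb, -0.45 from 4 to 8 kb and -0.93 over 8 kb. Ybx2 and Brwd1 were near the median of their class. Crem, Mybl1 and Brdt, with 4967, 5013 and 5060 exonic bases, were above theirs, as were Taf7l and Tbpl1, with 2003 and 3029. Taf7l lay just past the lower edge of its class, next to the class with a median of 0.61. Fhl5 was above its class and Gtf2a1l below. Sox30, with 2997, was 1.13 below the other libraries in a class whose median was 0.06. Rfx2 itself, with 3358 in the same class, differed by -1.49 in this library.

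WT replicate 3 was the lowest of the 5 WT libraries for 7 genes and the highest for 1. Its log2 difference from the other WT libraries was -0.66 for Fhl5, -0.47 for Sox30, -0.42 for Crem, -0.26 for Gtf2a1l, -0.25 for Tbpl1, -0.25 for Ybx2 and -0.13 for Brdt, and 0.03 to 0.11 for Mybl1, Taf7l and Brwd1. The median of the 14 elongating spermatid markers in this library was -0.66 relative to the WT mean, and that of round spermatid markers -0.38. WT replicate 5 had the highest level of 7 genes.

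**Figure D4:**
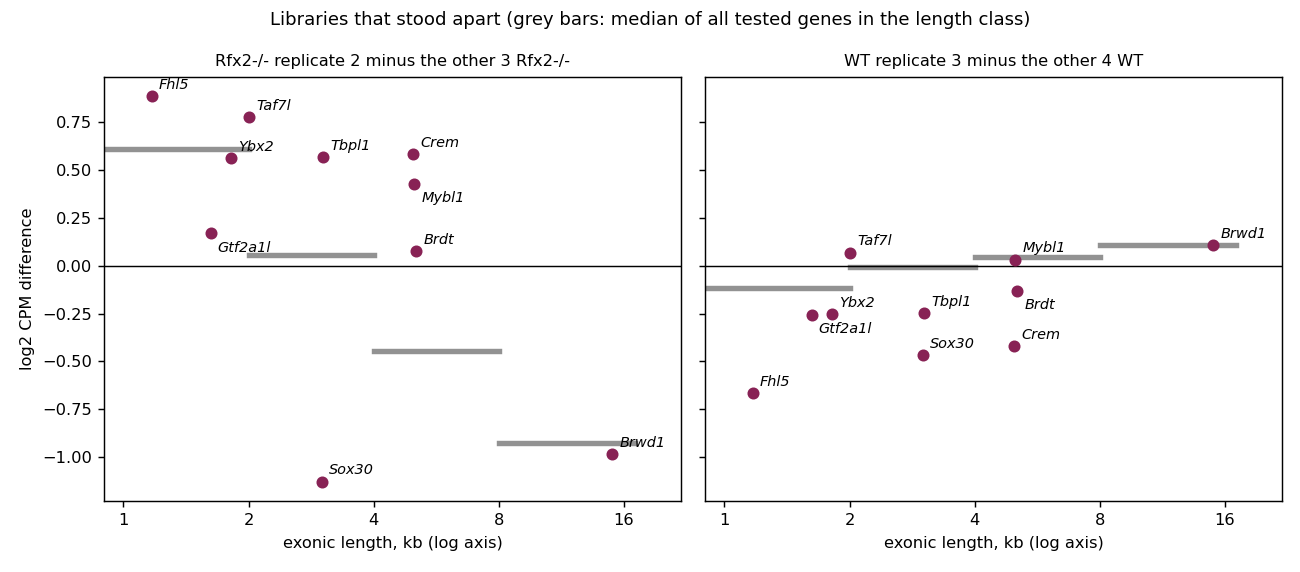
Difference in log2 CPM between 1 library and the others of its genotype against exonic length (log axis, kb), for Rfx2-/- replicate 2 on the left and WT replicate 3 on the right, with grey bars at the median of all tested genes in a length class. Sox30 at -1.13 lies far below the bar of its class in Rfx2-/- replicate 2 (0.06), and Gtf2a1l at 0.17 lies below its own (0.61).

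Genes whose deviations from the genotype means were most like those of each member over the 9 libraries were listed as a description. For Gtf2a1l they were Spata7, Il11 and Tax1bp1 (Pearson r 0.964, 0.954 and 0.949). For Sox30 they were Prr30, Nr6a1 and Iqce (r 0.993, 0.991 and 0.988), of which Nr6a1 encodes germ cell nuclear factor and differed by -0.26 between genotypes (edgeR adjusted p 0.450). For Crem they were Cab39l, Sucla2 and Adam5 (r 0.996, 0.990 and 0.987), and for Tbpl1 Pdzd9, 4930544G11Rik and Dnajb6 (r 0.998, 0.997 and 0.995). For Fhl5 they included Tssk2 (r 0.992) and Pgk2 (r 0.992), for Brwd1 Chd1 (r 0.994), for Ybx2 Smpd5 (r 0.991), for Mybl1 Zfp367 (r 0.982), for Brdt Cdkal1 (r 0.977) and for Taf7l Fopnl (r 0.998). These points share the libraries that stood apart, Rfx2-/- replicate 2 in particular, which held 60.4% of the within-genotype squared deviation of Sox30, 62.0% of that of Taf7l and 10.01% of that of Gtf2a1l.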

How the data were processed

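RNA of testes from 5 wild type and 4 Rfx2-/- mice was measured, and mice were grouped by the genotype in the labels. Raw counts of reads for each gene were deposited, without normalisation. According to the methods, the authors purified total RNA on columns, made TruSeq libraries, sequenced single reads on a HiSeq 2000, mapped them to GRCm38, discarded reads with several positions and left out reads over exons of different genes. The submitters' processing notes name CASAVA 1.8.2, STAR 2.4 and featureCounts 1.4.6. A different read length and aligner stand elsewhere in the methods, and the use of strand is not given in the sources used here, so genes that overlap on opposite strands may share reads, and near copies lose them.

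Genotypes were compared in edgeR 4.0.16 (R 4.3.3) by its quasi-likelihood F test (TMM factors, filterByExpr, robust fit, genotype as the single factor) with Benjamini-Hochberg adjustment over 15613 genes. Called genes had an adjusted p at or under 0.01 and a change over 2-fold, limits modelled on those of the authors, who used DESeq. RPKM used the union of exons of protein coding transcripts in GENCODE M21, which held 96.6% of the table's genes. The gene list, the pathway and marker lists (written from general knowledge) and the rule for named genes (all 10, their relatives, list genes past either rule or named for their role, and the 3 genes most alike) were chosen with earlier results of these data known. Promoter motifs were searched on both strands of RefSeq windows. The X-box was searched by a strict degenerate pattern.

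Alternatives were DESeq2 1.42.0, other scalings and filters, a length correction, thinning, a test against 2-fold and omission of each library. The procedure was tested on simulated counts with known changes. Total counts were 13574764 to 28800855 per library, which for a count of 0 allows up to 3 counts, or 0.0995 to 0.234 CPM, covering counting error only. The methods describe the use of littermates of the same age where possible, and the labels do not say which mice shared a litter. Litters were therefore not part of the fit. Each p-value sets the difference between genotypes against the spread between these samples within a genotype. Within a genotype the counts of any 2 libraries differed by a chi-square of at least 4.52 per gene, so each was kept as a replicate. The result of a listed gene is not reported here.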

Additional observations from a re-analysis of the deposited data

Results flagged for a closer look

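In 22 groups of values (each gene in each genotype, Rfx2 included), the gap between the most extreme library and its nearest neighbour was divided by the range (Dixon's ratio), and 1 group was outlying where chance gives about 1.1. This was Sox30 in the Rfx2-/- libraries, with 75.7 CPM in replicate 2 against 162 to 169 CPM in the other 3 (ratio 0.919).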

How the results depend on the processing

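Gtf2a1l kept its call under all alternatives with an adjusted p limit of 0.01 and a fitted change over 2-fold, and 0 of the 10 genes were called lower when edgeR tested for a change beyond 2-fold (2 lower and 1 higher at an unadjusted p under 0.05 in the main test). The count of 2 lower genes by the wider rule became 1 (Gtf2a1l) with total counts, with no filter on low counts and with Rfx2-/- replicate 1 thinned, and was 1 to 2 when single libraries were left out. It was 1 without each WT library and without Rfx2-/- replicates 3 and 4. Sox30 was the gene lost, and the cause was not tested. Leaving out WT replicate 3 and Rfx2-/- replicate 2 together, chosen after seeing the data, gave 4 (Fhl5, Gtf2a1l, Sox30 and Ybx2). The count of 0 higher genes by the wider rule was 0 to 1 when single libraries were left out and became 1 (Taf7l) with the length trend removed and without Rfx2-/- replicate 1. Fhl5 (log2 fold change -0.03, and -0.30 to 0.16 when single libraries were left out) changed sign with total counts (0.12), without WT replicate 5 (0.07), without Rfx2-/- replicate 1 (0.16), without replicate 3 (0.07) and without replicate 4 (0.04). Total counts moved the median of all genes from 0.03 to 0.16. Over all genes, 575 lower and 129 higher calls became 731 and 211 with DESeq2, and 272 and 29 in the test against 2-fold. No paired analysis was possible because replicate numbers were given in accession order only. Counts per gene do not separate isoforms, and depth did not limit these genes.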
